A study of Mus musculus with 45 samples.

Results

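The mRNAs on polysomes of Ter119+ fetal liver cells were compared between mice that had 1 floxed Rps19 allele and carried VavCre (VavCre Rps19flox/+) and mice with the same floxed allele and no Cre (Rps19flox/+). The comparison rests on 3 libraries of each genotype, chosen by their titles from the 45 libraries of the series. VavCre drives Cre recombinase in blood-forming and endothelial cells, so the floxed Rps19 copy is removed there and the other copy remains. The controls carry the floxed copy too, undeleted. All fetuses were at E15.5, from VavCre females mated with males homozygous for the floxed allele, and their strain is not given in the sources used here. Each library is a pool of cells of 1 genotype taken by magnetic beads for Ter119 after the Kit+ cells had been removed, and the cells had been kept in 25 µg/mL emetine, which holds ribosomes on mRNA, for 15 min. Lysates were spun through a gradient of 10 to 50% sucrose, and poly(A) RNA of the polysome and cytoplasm fractions of each pool was sequenced. The cytoplasm of the same pools, the Kit+ polysomes of the Rps19 line and the Ter119+ polysomes of the Rpl5 line (VavCre Rpl5flox/+ and Rpl5flox/+), all treated in the same way, are used only to show where these 6 libraries differ.

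Rps19 is a protein of the small ribosomal subunit, and loss of 1 copy of its gene is a cause of Diamond-Blackfan anaemia, in which red cell precursors fail. Cells short of a ribosomal protein make fewer ribosomes, and unassembled ribosomal proteins bind Mdm2 and so stabilise p53. An mRNA on several ribosomes sediments as a polysome, so its share of the polysome fraction depends on how much of it is in the cell, on how often it is translated and on how long its coding region is. Many ribosomal protein mRNAs begin with a C followed by a run of pyrimidines, the 5′ terminal oligopyrimidine (TOP) motif, through which their translation is controlled as a group.

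The start sites of 8 ribosomal protein genes that fell on the polysomes and of 2 that did not pass the test are shown here, because the TOP motif is what mRNAs of this class are known to share. Each line has 10 bases before and 20 bases from the annotated start, 5′ to 3′ on the gene's strand (RefSeq, GRCm38.p6). Capitals mark a run of at least 6 C or T that begins with C within 5 bases of the start. The 4 genes with such a run and the largest fall among those with 1 annotated start come first. The 4 without a run and with the largest fall follow. The last 2 have a run and did not pass the test, and were taken from the upper end of the log2 changes of such genes.
Rpl38, chr11:114668570-114668599, + strand: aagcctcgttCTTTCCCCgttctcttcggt
Rplp2, chr7:141447641-141447670, + strand: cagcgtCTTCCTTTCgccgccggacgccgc
Fau, chr19:6057937-6057966, + strand: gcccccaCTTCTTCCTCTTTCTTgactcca
Rpl22l1, chr3:28805498-28805527, + strand: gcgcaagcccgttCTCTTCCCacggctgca
Rpl41, chr10:128549149-128549178, - strand: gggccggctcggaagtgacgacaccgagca
Rpl37, chr15:5116603-5116632, + strand: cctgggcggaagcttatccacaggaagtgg
Rpl37a, chr1:72711250-72711279, + strand: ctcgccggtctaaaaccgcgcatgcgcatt
Rps28, chr17:33824543-33824572, - strand: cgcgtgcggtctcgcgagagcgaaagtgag
Rpl15, chr14:18270967-18270996, - strand: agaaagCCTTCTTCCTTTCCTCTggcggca
Rpl12, chr2:32961702-32961731, + strand: agcaggatccgtCTTTTCggctttcggctc
Such a run stood at the start of 28 of the 61 ribosomal protein genes with a start sequence (45.9%) and of 12.9% of the 8369 tested genes that have one. Among the ribosomal protein genes, 9 of 28 with a run and 7 of 33 without one fell. The median log2 change was -0.68 with a run and -0.60 without one. The search was on the gene's strand only, and a match here is a description of these letters, not a measured start of transcription.

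Levels are normalized counts, that is reads adjusted for the size of the library. A change is VavCre minus control on the deposited log2 scale, given with the standard error (SE) of limma's fit to the 6 libraries, and a gene passed where its Benjamini-Hochberg adjusted p was under 0.05. The 6 polysome libraries differed in depth with the genotype. The VavCre libraries held 33564526, 20475572 and 29587165 reads and the controls 12624181, 16065820 and 4587211, so 1 read stands for 1.10 to 1.34 normalized counts in VavCre and for 2.81 to 9.83 in controls. Lars2, the gene of the mitochondrial leucyl-tRNA synthetase, took 0.306, 1.57 and 0.552% of the reads in VavCre and 5.71, 3.22 and 17.3% in controls. Its log2 change was -3.97 ± 0.72 (adjusted p = 0.0258). Red cell markers were present in all 6 libraries, but some differed between the groups. Slc4a1, the anion exchanger of the red cell membrane, lay between 115000 and 232760 normalized counts and Gata1, a master regulator of red cell genes, between 6967 and 8397, with the groups overlapping in both. Hba-a1, an adult alpha globin, was lower in all VavCre libraries, at 3858000 to 6543300 against 7748000 to 13112000. Epb42 and Rhag, of the red cell membrane, were higher in all of them, at 6361 to 6710 against 2164 to 5645 for Epb42 and at 7446 to 8695 against 2881 to 6917 for Rhag. Control replicate 2, with the lowest Lars2 share of the controls, was the control nearest to the VavCre mean for 79.8% of the genes that fell, for 59.8% of those that rose and for 49.5% of all genes tested. With the reads thinned to the depth of the shallowest library 403 genes passed the test described below, 345 of them among the 397 that passed at full depth. The part of the Lars2 share in the results was not tested.

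The targeted gene was lower in all VavCre libraries. Rps19 (chromosome 7, 24884592 to 24889811, GRCm38.p6) was at 14497, 14951 and 16139 normalized counts on VavCre polysomes and at 32086, 27675 and 34246 on control polysomes. No library of either group overlapped with the other group. The mean was 2.06-fold lower, a log2 change of -1.04 ± 0.20 (SE, n = 3 and 3, adjusted p = 0.0285). Without 1 library the change stayed between -1.13 and -0.97, and its adjusted p reached 0.179. In the cytoplasm of the same pools the change was -0.21 (adjusted p = 0.226), and the difference between the fractions, -0.83 ± 0.25, did not pass the test (adjusted p = 0.249). On Kit+ polysomes the change was -0.87 (adjusted p = 0.0268). Rpl5, a large-subunit protein that binds Mdm2 and the gene targeted in the other line, was at 380, 379 and 712 in VavCre and at 321, 306 and 639 in controls, with overlapping groups and a change of 0.23 ± 0.46 (adjusted p = 0.767). Tsr2, the escort that carries Rps26 to the forming ribosome, changed by 2.21 ± 1.23 (adjusted p = 0.276), with the groups overlapping.

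Across 10412 genes, 397 passed the test (3.81%), of which 209 were higher (2.01%) and 188 lower (1.81%) in VavCre. The groups did not overlap for 3411 genes (32.8%), 2449 of them higher. The median change of all genes was 0.51 on the log2 scale, and 0.29 among genes with a mean of at least 500, so a change is best read against that shift. When the 6 libraries were rescaled to each other by the median of their ratios, the median was 0.24, and 192 genes were higher (1.84%) and 366 lower (3.52%), so that 65.6% of calls were lower in place of 47.4%. All of the 397 genes kept their sign and an unadjusted p under 0.05 in the fits without 1 library, but few passed after adjustment. Only 0 to 3 genes did so without any 1 of VavCre replicates 1, 2 and 3 or control replicates 1 and 3, and 2016 did so without control replicate 2. Among the 397, 41 had no read in any control and 2 no read in any VavCre library.

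**Figure D1:**
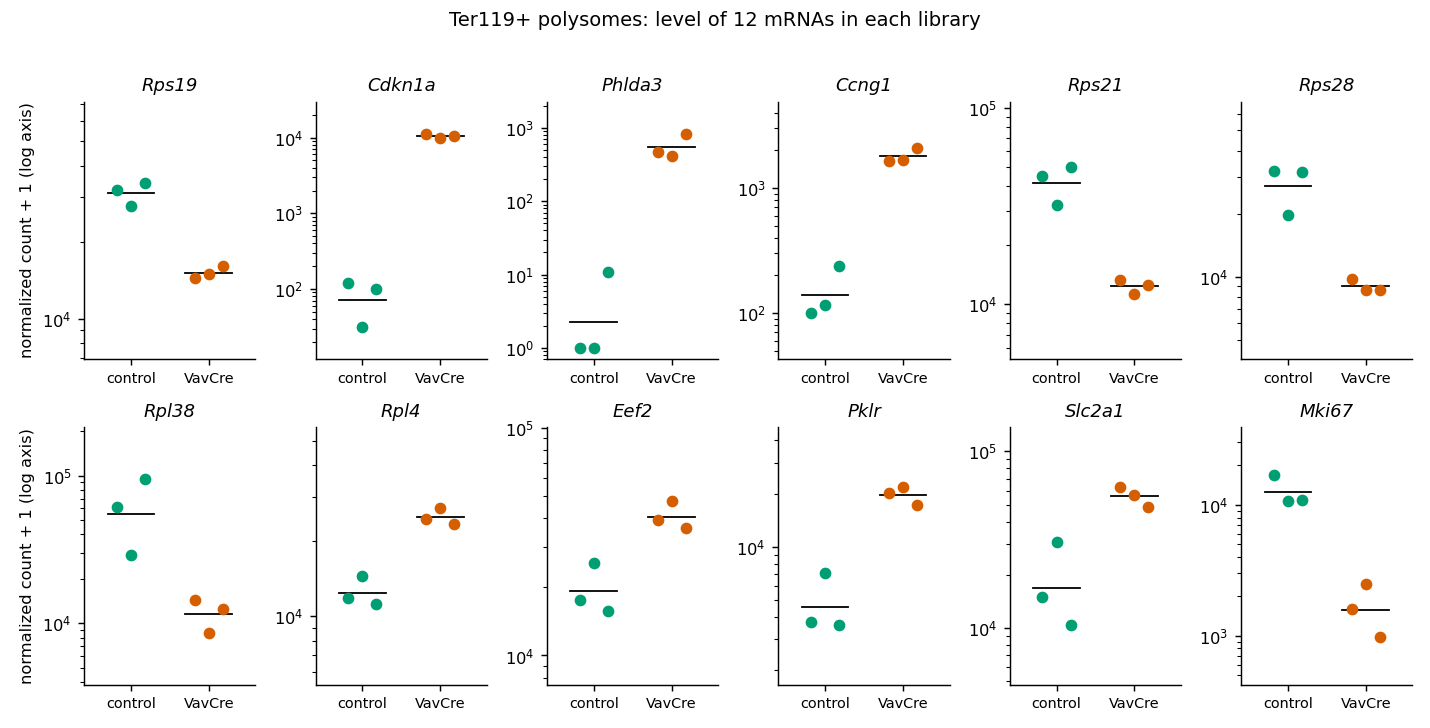
Normalized count plus 1 (log axis) of 12 mRNAs in each Ter119+ polysome library, 3 controls (green) and 3 VavCre Rps19flox/+ (orange), with the mean of the log values as a line. In all 12 panels the groups do not overlap: Rps19, Rps21, Rps28, Rpl38 and Mki67 are lower in VavCre and the other 7 higher.

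Ribosomal protein mRNAs of the small subunit were lower on VavCre polysomes. Of 33 tested members besides Rps19, 11 fell and 0 rose (33.3% lower, against 1.81% of all genes). The median change was -0.77, and 32 of 33 lay below the median of all genes. With the libraries rescaled the median was -1.05 and 19 fell. The summed level was 641750, 579340 and 578410 normalized counts in VavCre and 991680, 921710 and 1053300 in controls, a ratio of 0.607 with no overlap. In the cytoplasm of the same pools the ratio was 0.95 and the groups overlapped, 0 members fell and 1 rose, and the median was -0.08. Without 1 of the 6 libraries the median stayed between -0.79 and -0.67, while the count of members that fell was 0 in 5 of those fits and 17 without control replicate 2. In this last fit 462 of all 10412 genes fell.

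Rps21, a protein on the solvent side of the small subunit (chromosome 2, 180257379 to 180258444), was at 13231, 11312 and 12519 normalized counts in VavCre and at 44830, 32009 and 49998 in controls. It fell by 1.75 ± 0.23 on the log2 scale (adjusted p = 0.0152). Control replicate 2 was the lowest control and still stood well above all VavCre libraries. Rps28, which lies where mRNA leaves the small subunit (chromosome 17, 33823036 to 33824562), was at 9740, 8626 and 8672 in VavCre and at 32177, 19776 and 31542 in controls, and it fell by 1.59 ± 0.24 (adjusted p = 0.0164). Rps29, a small zinc-binding protein of the subunit's head, was at 22152, 19083 and 16286 in VavCre and at 63777, 56851 and 51365 in controls, and it fell by 1.59 ± 0.22 (adjusted p = 0.0152). Fau, which is made as a fusion of a ubiquitin-like protein and Rps30, fell by 1.58 ± 0.25 (adjusted p = 0.0179). The smallest falls that passed were those of Rps27 and Rps18, with log2 changes of -0.86 each. Others that fell were Rps9, Rps14, Rps15 and Rps20, all between these and Fau. None of Rps21, Rps28, Rps29 and Fau passed the test in the cytoplasm, where their changes were -0.04, 0.02, -0.27 and -0.26. Ribosomal protein genes have many processed copies in the genome, and how reads were shared between them is not given in the sources used here.

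Large-subunit proteins fell more often than they rose. Of 49 tested, 12 fell (24.5%, against 1.81% of all genes) and 2 rose (4.08%, against 2.01%). The median was -0.60, and 44 lay below the median of all genes. The summed level was 855790, 744900 and 777270 normalized counts in VavCre and 1460200, 1211300 and 1504500 in controls, a ratio of 0.569, against 0.981 in the cytoplasm, where 1 fell and 1 rose. Rpl38, a small protein linked to the choice of developmental mRNAs by ribosomes (chromosome 11, 114667818 to 114672333), was at 14294, 8647 and 12441 in VavCre and at 61218, 28890 and 94263 in controls, and it fell by 2.25 ± 0.40 (adjusted p = 0.0227). Rplp1 and Rplp2, the acidic proteins of the stalk that recruits translation factors, fell with changes of -1.68 ± 0.23 and -2.09 ± 0.37. Rplp1 was at 31337, 32702 and 28405 in VavCre and at 97521, 85544 and 115350 in controls. Rpl37a and Rpl41, small proteins in the body of the subunit, fell with changes of -1.72 ± 0.24 and -1.87 ± 0.29. Others that fell were Rpl35a, Rpl37, Rpl22l1, Rpl36, Rpl39 and Rpl36a, with log2 changes from -1.83 to -0.89. Rpl15 and Rpl12, shown above for their start, changed by 0.35 ± 0.20 (adjusted p = 0.28) and 0.88 ± 0.34 (adjusted p = 0.141). With rescaled libraries 21 members fell and 1 rose. The count that fell was 0 in 5 of the fits without 1 library and 23 without control replicate 2, where 462 of all 10412 genes fell.

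The 2 large-subunit mRNAs that rose were Rpl4 and Rpl10. Rpl4, whose long extension reaches into the subunit's exit tunnel, was at 24316, 27065 and 23309 normalized counts in VavCre and at 11864, 14487 and 11170 in controls, a rise of 1.00 ± 0.20 (adjusted p = 0.0335). Rpl10, which joins the subunit last, was at 5674, 4094 and 8904 in VavCre and at 765, 721 and 138 in controls, a rise of 3.74 ± 0.58 (adjusted p = 0.0167). Snora70, a small nucleolar RNA gene, lies within Rpl10. For both genes each VavCre library stood above each control.

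Of 24 translation factors and other mRNAs listed with the TOP class, 1 rose (4.17%, against 2.01% of all genes) and 2 fell (8.33%, against 1.81%). The median was -0.18, and 17 lay below the median of all genes, 0.51. Eef2, which moves the ribosome along the mRNA, was at 39286, 47507 and 36282 normalized counts in VavCre and at 17470, 25384 and 15712 in controls, and it rose by 1.09 ± 0.25 (adjusted p = 0.0451). Pabpc4, a poly(A)-binding protein, and Eef1d, a subunit of the exchange factor of elongation factor 1, fell with changes of -1.75 ± 0.29 and -1.85 ± 0.37. Eef2 and the ribosomal proteins that fell are all listed in the TOP class and moved in opposite directions. With rescaled libraries, however, Eef2 changed by 0.82 and did not pass limma's test (adjusted p = 0.0515). In that fit 0 of the 24 rose and 3 fell. Among 31 initiation factors 1 rose (3.23%) and 3 fell (9.68%), with a median of 0.17. Eif1, which guards the choice of the start codon, was at 36772, 26759 and 31083 in VavCre and at 80647, 65581 and 73782 in controls, and it fell by 1.22 ± 0.23 (adjusted p = 0.0277). It also fell in the cytoplasm, by 1.05 (adjusted p = 0.000327). Eif5b, which joins the subunits, fell by 2.38 ± 0.39. Of the 3 subunits of eIF2, which brings the initiator tRNA, Eif2s2 fell by 1.16 ± 0.23 and Eif2s1 rose by 1.63 ± 0.36.

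Ribosome biogenesis factors rarely passed on polysomes, although 35 of 57 lay above the median of all genes. Of 57 tested, 1 rose on polysomes (1.75%, against 2.01% of all genes) and 0 fell, with a median of 0.75. The 1 that rose was Rrs1, needed for the large subunit (2.12 ± 0.47, adjusted p = 0.0413). The groups did not overlap for 23 members, all higher, where 23.5% of all genes were higher without overlap. In the cytoplasm, where 11.8% of all genes were higher and 13.1% lower, 35 of these 57 rose and 1 fell, with a median of 0.74. Of 21 ribosome rescue and quality control factors 0 passed the test (median 0.57), and the smallest adjusted p was that of Gtpbp1, 0.0783. Of 28 mitochondrial ribosomal proteins 1 rose (Mrpl18) and 0 fell.

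**Figure D2:**
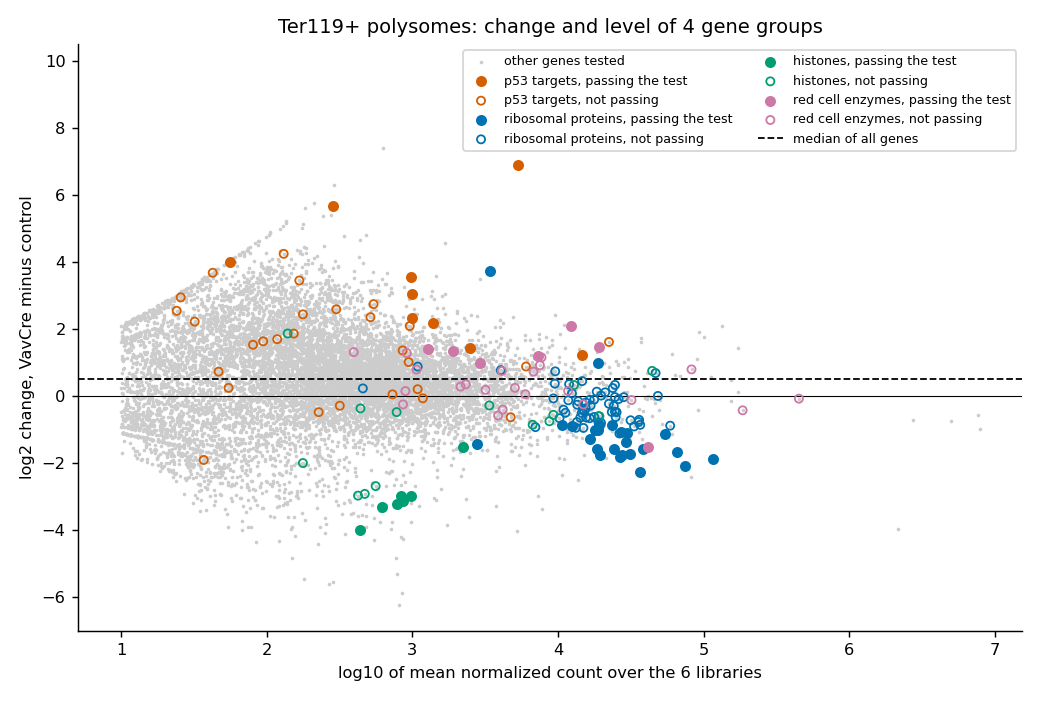
Log2 change (VavCre minus control, vertical axis) against log10 of the mean normalized count over the 6 libraries (horizontal axis) for 10412 genes, with 4 gene groups in colour and the members that passed the test filled. Filled ribosomal protein mRNAs lie below the dashed median of all genes (0.51) except Rpl4 and Rpl10, filled p53 targets lie above it, and filled histones lie below it.

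Targets of p53, the transcription factor that stops or kills stressed cells, were higher on VavCre polysomes. Of 37 tested, 9 rose and 0 fell (24.3% higher, against 2.01% of all genes), and the median was 1.86, or 1.63 with the 4 members that had no read in a whole group put at their bound. In 21 of the 37 members every VavCre library was above every control, against 23.5% of all genes. In 0 every one was below, against 9.24%. The summed level was 103610, 106850 and 81830 normalized counts in VavCre and 32382, 60183 and 28357 in controls. In the cytoplasm 19 of 38 rose and 2 fell, against 11.8% and 13.1% of all genes, with a median of 0.69. The count on polysomes was 10 with rescaled libraries, 0 to 2 in the fits without 1 library other than control replicate 2, and 17 without that one. In this last fit 1554 of all 10412 genes rose.

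Cdkn1a, the p21 inhibitor that halts the cell cycle (chromosome 17, 29090979 to 29100722), was at 11161, 9734.5 and 10469 normalized counts in VavCre and at 119, 30.9 and 98.3 in controls. The mean was 126-fold higher, a log2 change of 6.89 ± 0.42 (adjusted p = 0.0002), and it changed alike in the cytoplasm, by 6.39. The VavCre libraries were close to each other, and the controls were low in all 3. Phlda3, which restrains Akt signalling, was at 473, 411 and 823 in VavCre, while 2 controls had no read and the other had 9.83, and it rose by 5.68 ± 0.89 (adjusted p = 0.0167). Ccng1, a cyclin that returns p53 to low levels, was at 1639, 1657 and 2100 in VavCre and at 98.7, 115 and 236 in controls, and it rose by 3.54 ± 0.41 (adjusted p = 0.0103). Psrc1, which binds spindle microtubules, rose by 3.05 ± 0.45. Tnfrsf10b, a death receptor, had no read in any control and was at 149, 69.6 and 114 in VavCre, at least 6.63-fold higher against a floor of 3 reads per control library.

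Bax, which opens mitochondria in cell death, was at 3791, 3961 and 3058 normalized counts in VavCre and at 1049, 1805 and 1239 in controls, and it rose by 1.42 ± 0.27 (adjusted p = 0.0278). Gadd45a, a DNA damage response gene, was at 20280, 21371 and 18856 in VavCre and at 6894, 12424 and 7237 in controls, and it rose by 1.24 ± 0.26 (adjusted p = 0.0339), whereas its cytoplasmic change was 0.19 (adjusted p = 0.164). Ei24 and Abhd4 were the other members that rose. Mdm2, the ubiquitin ligase of p53, changed by 1.36 ± 0.40 and did not pass (adjusted p = 0.0809). Trp53, the gene of p53 itself, which was singled out after its values were seen, was at 2185, 2538 and 2145 in VavCre and at 732, 351 and 383 in controls, and it rose by 2.27 ± 0.34 (adjusted p = 0.016). Its rise in the cytoplasm was 1.00 (adjusted p = 0.00105).

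The integrated stress response, in which Atf4 is translated when initiation slows, had no member that passed. Of 24 tested, 0 passed (median -0.18), and Atf4 was at 13026, 13872 and 11249 normalized counts in VavCre and at 15418, 22133 and 18691 in controls, a change of -0.55 ± 0.22 (adjusted p = 0.147) with no overlap. In the cytoplasm 15 of 25 fell and 2 rose, against 13.1% and 11.8% of all genes. Of 7 aminoacyl-tRNA synthetases 0 passed (median 0.34). Of 24 heat shock and chaperone mRNAs 0 rose and 1 fell (4.17%, against 1.81% of all genes), Hsp90aa1 by 1.88 ± 0.42. Of 37 proteasome subunits 1 rose (Psmb2) and 1 fell (Psmd13), 2.70% each way, against 2.01% and 1.81% of all genes.

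**Figure D3:**
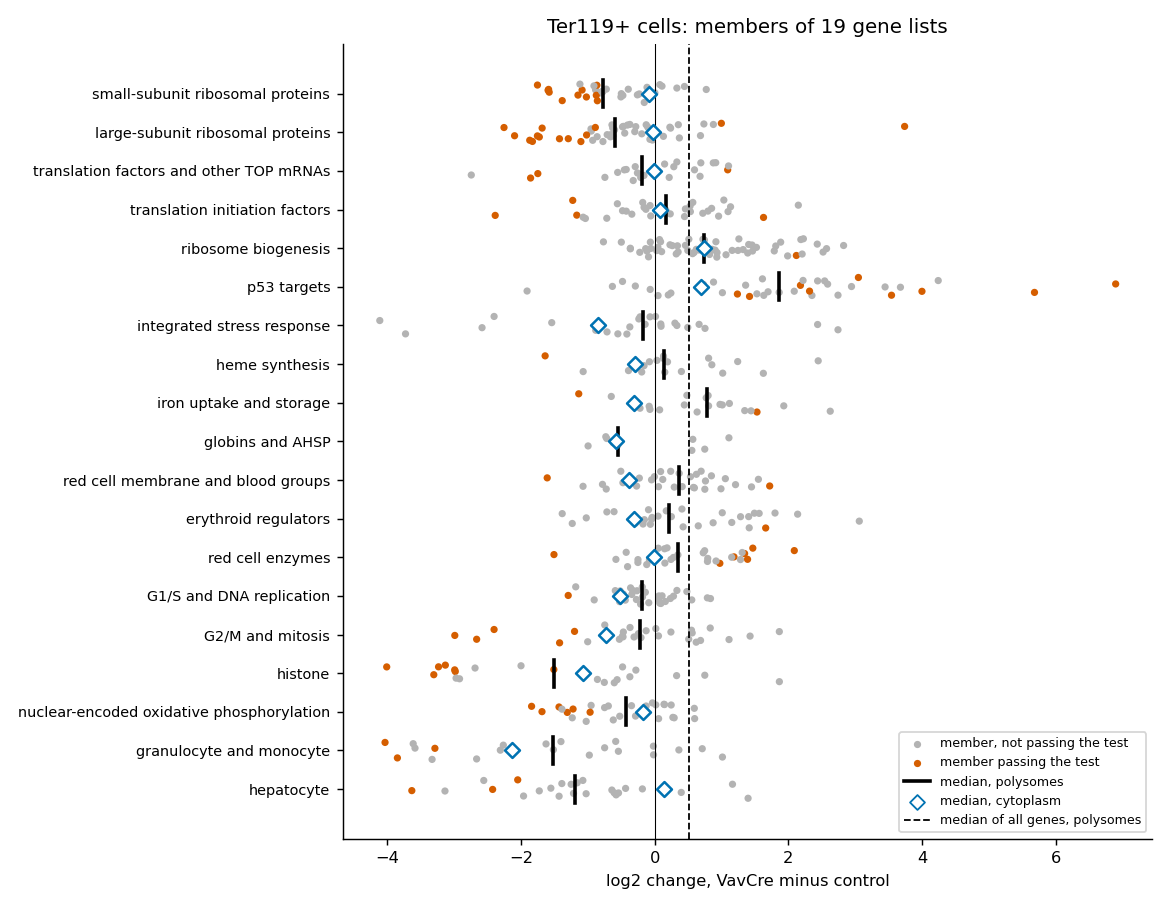
Log2 change on Ter119+ polysomes of each member of 19 gene lists (points; orange passed the test), with the median on polysomes (black bar) and in the cytoplasm of the same pools (diamond). The bar lies left of the diamond for both ribosomal protein lists (-0.77 against -0.08 and -0.60 against -0.02) and right of it for p53 targets (1.86 against 0.69).

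Several enzymes of glycolysis rose. Of 29 red cell enzymes 6 rose and 1 fell (20.7% higher, against 2.01% of all genes). Even so, the median, 0.35, was below that of all genes. Pklr, the red cell pyruvate kinase (chromosome 3, 89136122 to 89146815), was at 20245, 21690 and 17183 normalized counts in VavCre and at 3743, 7152 and 3628 in controls, and it rose by 2.09 ± 0.28 (adjusted p = 0.0152). Eno1, enolase, was at 10898, 8659 and 10723 in VavCre and at 4266, 4303 and 4641 in controls, and it rose by 1.19 ± 0.20 (adjusted p = 0.0202). Gapdh rose by 1.47 ± 0.32, and G6pdx, Pgam1 and Gpi1 rose too. Pklr, Eno1 and Gapdh also rose in the cytoplasm, by 0.84, 0.85 and 0.55. Gpx4, which detoxifies lipid peroxides, fell by 1.5 ± 0.27 (adjusted p = 0.0258). With rescaled libraries 5 members rose, and 0 rose in the fits without 1 library other than control replicate 2, without which 10 rose. In this last fit 1554 of all 10412 genes rose.

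Other red cell lists held 0 to 2 genes that passed, where 2.01% of all genes rose and 1.81% fell. Of 18 heme synthesis genes 1 fell: Alad, which makes porphobilinogen, was at 17699, 12411 and 12911 normalized counts in VavCre and at 63987, 25735 and 51925 in controls, and it fell by 1.64 ± 0.34 (adjusted p = 0.0335). Of 20 iron genes 1 rose and 1 fell (5% each way). They were the endosomal ferrireductase Steap3 (1.53 ± 0.34) and the iron-sulfur cluster factor Glrx5 (-1.13 ± 0.27). Of 31 membrane and blood group genes 1 rose and 1 fell. Slc2a1, the glucose transporter, was at 62493, 56390 and 48605 in VavCre and at 14945, 30549 and 10442 in controls, and it rose by 1.72 ± 0.36 (adjusted p = 0.0342), against 0.11 in the cytoplasm.

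Of 32 erythroid regulators 1 rose (3.13%, against 2.01% of all genes), Zfpm1, the cofactor of Gata1 (1.66 ± 0.30, adjusted p = 0.0244). Gata1 changed by -0.06 ± 0.20 and Klf1, another red cell regulator, by 0.25 ± 0.21, both with overlapping groups. Of 34 late maturation genes 0 passed, and the smallest adjusted p was that of the mitophagy receptor Bnip3l (1.39 ± 0.35, adjusted p = 0.0583). Of 9 genes of globins and their chaperone Ahsp 0 passed (median -0.55). The summed globin list was 21425000, 12091000 and 18840000 in VavCre and 34869000, 27765000 and 24105000 in controls, a ratio of 0.604 on polysomes and 0.610 in the cytoplasm, with no overlap in either. Cytoplasmic members fell in 6 of 9 cases, against 13.1% of all genes.

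A minority of cell division genes fell on VavCre polysomes. Of 28 G2/M and mitosis genes 5 fell and 0 rose (17.9% lower, against 1.81% of all genes, median -0.22). Mki67, a marker of dividing cells (chromosome 7, 135689784 to 135716450), was at 1602, 2469 and 973 normalized counts in VavCre and at 16952, 10762 and 10816 in controls, and it fell by 2.99 ± 0.34 (adjusted p = 0.0103). Cenpf and Cenpe, kinetochore proteins, fell with changes of -2.40 ± 0.30 and -2.66 ± 0.41. Top2a, which untangles DNA, fell by 1.42 ± 0.25 and Birc5, survivin, had a change of -1.20 ± 0.21, which passed too. The summed level overlapped between the groups, at 107680 to 139440 in VavCre and 111280 to 170970 in controls. In the cytoplasm, where 13.1% of all genes fell, 20 of 28 fell and 0 rose, with a median of -0.73. Of 31 G1/S and replication genes 1 fell on polysomes, Uhrf1, which keeps DNA methylation through replication (-1.29 ± 0.20, adjusted p = 0.0164), and 18 fell in the cytoplasm. Of 13 D-cyclins and Cdk inhibitors 2 rose, Ccnd2 (1.76 ± 0.40) and Cdkn1a, and 1 fell, the p19 inhibitor Cdkn2d (-1.21 ± 0.24). These shares were 15.4% and 7.69%, against 2.01% and 1.81% of all genes. In the fits without 1 library the count of G2/M genes that fell was 0 in 5 fits and 5 without control replicate 2, where 462 of all 10412 genes fell. Across these fits 0 to 3 G2/M genes rose.

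Some histone mRNAs fell on polysomes, and more of them fell in the cytoplasm. Of 21 tested 7 fell and 0 rose on polysomes (33.3% lower, against 1.81% of all genes, median -1.51). In the cytoplasm 19 of 21 fell, against 13.1% of all genes. The summed level overlapped between the groups on polysomes, at 119930, 97783 and 107940 normalized counts in VavCre and 104790, 140330 and 113480 in controls, a ratio of 0.908, against 0.632 in the cytoplasm. H1f3, a linker histone of replication, was at 202, 118 and 207 normalized counts in VavCre and at 1386, 685 and 3235 in controls, and it fell by 2.99 ± 0.56 (adjusted p = 0.0267). H2az2, a variant histone, was at 1339, 1322 and 817 in VavCre and at 3102, 2925 and 3756 in controls, and it fell by 1.51 ± 0.28 (adjusted p = 0.0258). Most replication histone mRNAs have no poly(A) tail, and their genes are near copies of each other, so their levels in poly(A) libraries are uncertain. All 7 that fell had their highest control value in replicate 3, the library with the highest Lars2 share. The other 5 were H1f1, H1f4, H1f5, H2ac4 and H4c4. Histone genes outside this list fell as well. H2ac19, H3c13, H4c12, H2ac10, H2bc3 and H2bc15 had log2 changes from -6.23 to -4.21, among the largest falls of all genes. The count of listed members that fell was 12 with rescaled libraries and 0 with all 11 Ter119+ polysome libraries of both lines in the fit. The histone genes named from outside the list did not pass in the fit of all 11 either.

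Nuclear genes of oxidative phosphorylation were lower too. Of 28 tested 6 fell and 0 rose (21.4% lower, against 1.81% of all genes, median -0.43). In the cytoplasm 1 fell and 0 rose. Ndufa2, Ndufa3 and Ndufb7, small subunits of complex I, fell with changes of -1.68 ± 0.28, -1.43 ± 0.25 and -1.84 ± 0.32. Ndufa2 was at 3519, 2572 and 2892 normalized counts in VavCre and at 11691, 6439 and 11651 in controls. The others that fell were Cox7c, Uqcr11 and Uqcrh. Of 13 mRNAs of the mitochondrial genome, mt-Co1 rose by 2.09 ± 0.43 (adjusted p = 0.0337) and mt-Atp6 fell by 3.36 ± 0.47 (adjusted p = 0.0152). mt-Co1 was at 180700, 291880 and 167120 in VavCre and at 27322, 90527 and 46114 in controls. The mitochondrial genome has nuclear copies, so the sharing of reads is uncertain here as well.

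The largest rises outside these lists were in genes with no or nearly no read in the controls. Gm49342, a predicted gene, was at 1327, 1236 and 1221 normalized counts in VavCre and had no read in any control, at least 75.3-fold higher. Nutf2, which returns Ran to the nucleus, was at 514, 666 and 556 normalized counts in VavCre and had no read in any control, at least 34.5-fold higher, while its cytoplasmic change was 0.28 (adjusted p = 0.199). Gna15, a G protein of blood cells, Rab4a, an endosomal GTPase, and Taf9, a transcription factor subunit, also had no read in any control and were at least 21.9-fold, 16.2-fold and 16.1-fold higher. Bloc1s6, of the complex that builds lysosome-related organelles, had reads in 1 control. At the other end, among the largest falls apart from the histones named above, was Eif4ebp3, a translation repressor. It was at 494, 564 and 629 in controls and had reads in VavCre replicate 1 only, at 18.6. Ahnak, a giant scaffold protein, was at 259, 115 and 521 in controls and likewise had reads in VavCre replicate 1 only, at 3.29. Both results rest on VavCre libraries with no read, where a fitted change depends on how 0 is put on the log2 scale.

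The summed markers of granulocytes and monocytes, macrophages, hepatocytes, and endothelial and stromal cells were higher in all control polysome libraries, and their part in the results was not tested. Those of stem and progenitor cells (ratio of VavCre to control 1.11) and megakaryocytes (0.749) overlapped. B-lymphoid and mast cell markers did not overlap, but both sums were low. They were 4.40 to 24.1 in VavCre and 111 to 206 in controls for B-lymphoid genes, and 0 to 42.8 and 44.9 to 187 for mast cell genes. The 22 granulocyte and monocyte markers summed to 4998, 3604 and 2700 normalized counts in VavCre and 42995, 11860 and 28711 in controls. Of 21 tested 3 fell (14.3%, against 1.81% of all genes). They were the neutrophil genes S100a8 (-3.29 ± 0.48), S100a9 (-4.03 ± 0.59) and Camp (-3.85 ± 0.52), while Ly6g was at 0 in all 6 libraries. In the cytoplasm the sums did not overlap either, and 15 of 20 fell, against 13.1% of all genes. The 24 hepatocyte markers summed to 66367 to 69790 in VavCre and 210090 to 347140 in controls. The 3 that fell (12.5%) were Mt1 and Mt2, metallothioneins that many cell types express, and Apoc1. Mt1 was at 25080, 21806 and 29856 in VavCre and at 144860, 104190 and 166770 in controls, and it fell by 2.42 ± 0.26 (adjusted p = 0.0103). In the cytoplasm the hepatocyte sums did not overlap either, with a ratio of 0.571 against 0.236 on polysomes. The median of the members there was 0.13, and 3 of 24 fell. Since the fractions are bulk RNA, fewer cells of a type and less RNA per cell cannot be told apart. Why the 2 fractions differ for these markers was not tested.

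The 17 macrophage markers summed to 2225 to 2673 normalized counts in VavCre and 3464 to 14434 in controls, and of 14 tested 0 passed (median -1.81). Siglec1 was at 0 in both groups and Mertk in the controls. The 19 endothelial and stromal markers summed to 837 to 1102 in VavCre and 2279 to 6846 in controls. Of 16 tested 1 fell (6.25%, against 1.81% of all genes), the matrix protein Sparc (-2.58 ± 0.60). In the cytoplasm the endothelial and stromal sums overlapped, with a ratio of 0.768. No member passed among 14 stem and progenitor genes (median -0.53), 11 megakaryocyte genes (-0.45), 3 mast cell genes (-1.30), 3 B-lymphoid genes (-1.30), 13 immediate early genes (-0.40), 10 interferon response genes (-0.26) and 4 sex-linked genes (-0.50). The defining B-lymphoid genes Pax5 and Rag1 were at 0 in all 6 libraries. All 4 sex-linked genes tested are on the Y chromosome (Ddx3y, Eif2s3y, Kdm5d and Uty). They had no read in VavCre replicate 2, and Ddx3y and Eif2s3y had reads in the other 5 libraries.

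**Figure D4:**
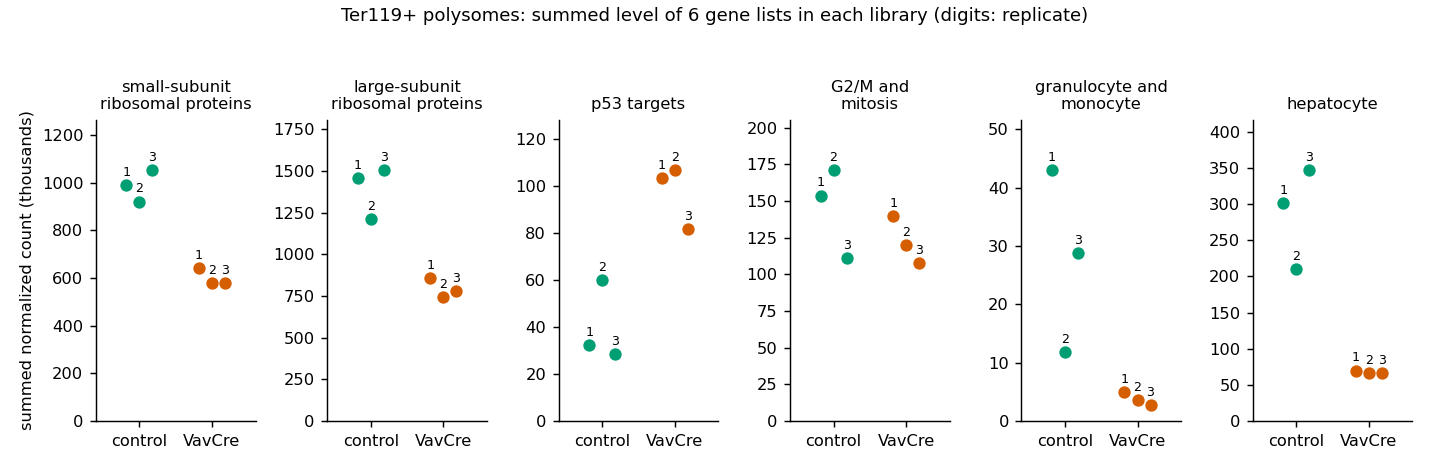
Summed normalized count (axis from 0, scaled as labelled) of 6 gene lists in each Ter119+ polysome library, with the replicate number at each point. The groups overlap only for G2/M and mitosis, and control replicate 2 is the control nearest to VavCre for both ribosomal protein lists, p53 targets, granulocyte and monocyte markers and hepatocyte markers.

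Whether the changes on polysomes differ from those in the cytoplasm of the same pools was tested with the difference between the fractions. Of 9877 genes 0 passed (0%) with limma, and 1806 had an unadjusted p under 0.05. The median difference was -0.57 for small-subunit and -0.45 for large-subunit ribosomal proteins, against 0.57 for all genes. Rps21 had a difference of -1.71 ± 0.32 (adjusted p = 0.214) and Rps28 one of -1.61 ± 0.32 (adjusted p = 0.214). Of the 397 genes, 392 were tested in the cytoplasm and 215 passed there in the same direction and 2 in the opposite one. So a fall on polysomes beyond that in the cytoplasm was not shown for any single ribosomal protein mRNA with 3 pools of each genotype.

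On Kit+ polysomes of the same line, which hold less mature cells, the ribosomal proteins that fell on Ter119+ polysomes were lower as well. There 10.6% of genes were higher and 4.14% lower. Depth and Lars2 share differed with the genotype there too. The Kit+ controls held 1010740, 7169974 and 1832668 reads, with 43.0, 10.3 and 54.9% of them from Lars2. The VavCre Kit+ libraries held 10840411, 24394654 and 37566060 reads, with 4.51, 0.511 and 0.382% from Lars2. The part of depth and of the Lars2 share in the Kit+ changes was not tested. All 23 ribosomal proteins that fell on Ter119+ polysomes had a negative change on Kit+ polysomes, and 16 of them passed. This was near the share for all genes that fell, of which 178 of 185 had a negative change there and 113 passed. All 9 p53 targets that rose had a positive change and 4 passed, as did 206 of 207 and 76 among all genes that rose. The median change of all genes on Kit+ polysomes was 1.15. Of 10464 genes, 1 passed the test of the difference between the cell types (0.00956%, with 951 at an unadjusted p under 0.05). This was mt-Atp6, which was at 1881, 814 and 1151 normalized counts in VavCre Ter119+ libraries and at 5751, 19338 and 17826 in the controls. On Kit+ polysomes it was at 17069, 10425 and 3874 in VavCre and had no read in any of the 3 controls.

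The Rpl5 line, with its own controls, showed the opposite direction for most of these ribosomal proteins, and a rise of Cdkn1a as well. In that line 1.85% of genes were higher and 3.62% lower on Ter119+ polysomes. The median change of all genes there was -1.02, against 0.51 in the Rps19 line. Of the 23 ribosomal proteins that fell in the Rps19 line, 22 had a positive change there and 18 passed, and 0 passed in the negative direction. Of all genes that fell in the Rps19 line, 99 of 187 had a positive change there and 41 passed. Rps28 was at 96729, 64787 and 67029 normalized counts on VavCre Rpl5flox/+ polysomes and at 9563 and 10977 on Rpl5flox/+ polysomes, a rise of 2.87 ± 0.30 (adjusted p = 0.00132). Rps19 itself rose by 1.55 ± 0.29 (adjusted p = 0.0135). The difference between the lines passed for 1100 of 10614 genes (10.4%). It was -4.46 for Rps28 (adjusted p = 9.43e-05) and 2.21 for Cdkn1a (adjusted p = 0.0775). Leaving out the Rpl5-line library of 1020907 reads, these were -4.54 and 1.92 (adjusted p = 0.0455), and 2284 genes passed. Cdkn1a rose in the Rpl5 line by 4.68 ± 0.58. Gypc, a membrane skeleton anchor, and Fech and Cpox, enzymes of heme synthesis, differed between the lines by 5.65, 4.59 and 3.57 (adjusted p = 0.000191 each). In the Rps19 line alone they changed by 1.45, 1.24 and 0.86 and did not pass. Of the 9 p53 targets that rose in the Rps19 line 4 had a positive change in the Rpl5 line and 1 passed, against 53 of 209 and 6 among all genes that rose.

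The Lars2 share was also the other way round between the genotypes of the Rpl5 line. It was 10.3, 1.37 and 35.1% of reads in VavCre Rpl5flox/+ and 4.47 and 0.165% in Rpl5flox/+. The third VavCre library there held 1020907 reads. In both lines, the genotype with the higher mean Lars2 share had the higher ribosomal protein levels and the lower Slc2a1: Slc2a1 was at 2494, 5679 and 3045 in VavCre Rpl5flox/+ and at 58052 and 71312 in Rpl5flox/+, while in the Rps19 line it was the VavCre libraries that were high. The part of the Lars2 share in these differences was not tested. The order did not hold library by library, since Rpl5flox/+ replicate 1 had a higher share than VavCre replicate 2 and less Rps28.

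**Figure D5:**
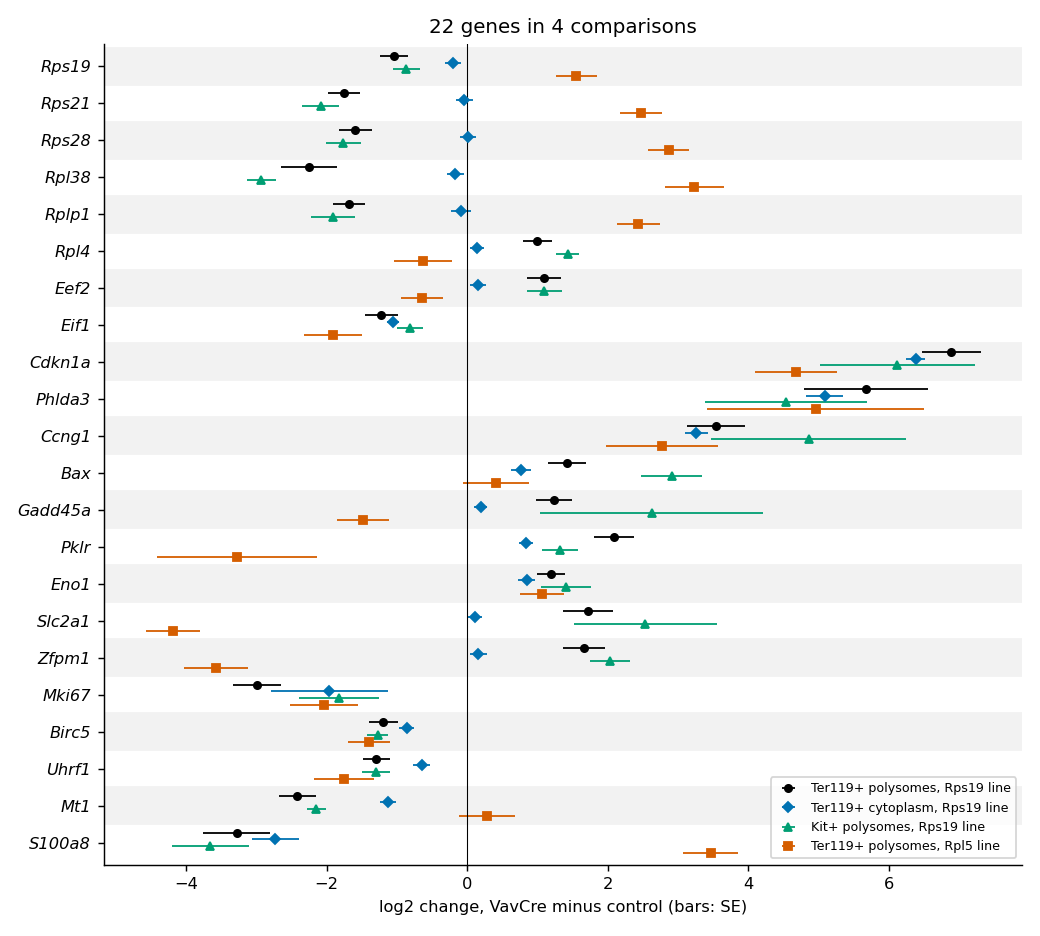
Log2 change (VavCre minus control) with its SE for 22 genes in 4 comparisons: Ter119+ polysomes, Ter119+ cytoplasm and Kit+ polysomes of the Rps19 line (n = 3 and 3 each) and Ter119+ polysomes of the Rpl5 line (n = 3 and 2). Rps21, Rps28, Rpl38 and Rplp1 lie below 0 on polysomes of both cell types of the Rps19 line, near 0 in the cytoplasm and above 0 in the Rpl5 line, while Cdkn1a, Phlda3 and Ccng1 lie above 0 in all 4.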

How the data were processed

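The authors deposited log2 values of 13449 genes in 45 libraries, with the build mm10 per the submitters' processing notes. Which aligner and counter made them is not given in the sources used here. The values follow a variance-stabilising transformation of counts divided by a size factor, with 2.92263 standing for 0 reads. Inverting it gave whole reads for 100% of values (tolerance 1e-06), and the normalized counts and depths printed are those. No pair of replicates agreed within sampling noise.

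The deposited log2 values of the 6 libraries were fitted with limma (version 3.58.1, R 4.3.3) by lmFit and trended eBayes. All tests were two-sided. Genes averaging under 10 normalized counts were left out, and p-values of the other 10412 were adjusted together (Benjamini-Hochberg, threshold 0.05). "Rose", "fell" and "passed" refer to it, and a change is VavCre minus control with its SE. Each library is a separate pool of fetuses, whose number is not given in the sources used here. Fraction differences were tested per pool, and cell types and lines by an interaction. The scripts were tested on simulated data.

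Named genes are Rps19, Cdkn1a, Lars2, Tsr2 and Rpl5, the 12 largest changes in each direction without overlap and with a higher mean of at least 50, the 3 members of each list with the smallest adjusted p among those that passed (otherwise 2), genes of comparisons with 5 or fewer calls, and the 3 leading genes of each difference. Genes named to list the rest of a count, and Trp53, Mdm2, Atf4, Gata1, Klf1 and defining markers, were chosen outside it. Some genes with overlaps or near copies are left out. A few genes are not reported here. Members and lists were chosen with earlier results of these data known. Gene positions come from RefSeq GRCm38.p6, which matched 13243 symbols. A list of nuclear-retained RNAs had no member here. Alternatives are given in the closing section.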

Additional observations from a re-analysis of the deposited data

Results flagged for a closer look

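Each value given here is a difference between 2 changes (VavCre minus control) that passed limma's interaction test, and 37 of the 38 compare the Rps19 line with the Rpl5 line on Ter119+ polysomes. The Rpl5 line has 3 VavCre libraries, 1 of them of 1020907 reads, and 2 control libraries, and a different order of the Lars2 share, whose part was not tested. The median change of all genes was 0.51 in the Rps19 line and -1.02 in the Rpl5 line, so each difference is best read against that gap. Small positive differences may hold little beyond it. On the log2 scale, the difference was -2.593 for Rps19, -4.225 for Rps21, -4.461 for Rps28, -2.566 for Rps29 and -3.695 for Fau. Without the library of 1020907 reads it was -2.62 for Rps19, -4.29 for Rps21 and -4.54 for Rps28.

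Among large-subunit proteins it was -5.488 for Rpl38, -4.597 for Rplp2, -4.12 for Rplp1, -3.969 for Rpl37a and -3.046 for Rpl41, and it was 1.63 for Rpl4 and 8.524 for Rpl10. Among translation factors it was 1.739 for Eef2, 2.799 for Eif2s1, -4.645 for Eif5b, -3.103 for Pabpc4 and -2.602 for Eef1d. The only p53 target named here was Gadd45a, at 2.726. Red cell and cell cycle genes gave 5.364 for Pklr, 1.844 for Gapdh, 5.913 for Slc2a1, 5.245 for Zfpm1 and 3.13 for Cdkn2d.

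Markers of granulocytes gave -6.75 for S100a8, -6.995 for S100a9 and -6.414 for Camp. The metallothioneins gave -2.702 for Mt1 and -1.502 for Mt2. Mitochondrial genes gave -3.348 for Ndufa2, -3.181 for Ndufb7, -2.597 for Ndufa3 and 4.561 for mt-Co1. The remaining genes gave -6.063 for Hsp90aa1, 9.136 for Nutf2, 5.562 for Bloc1s6, 7.3 for Taf9, which overlaps Ak6, and -7.438 for Ahnak.

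The change of mt-Atp6 on Ter119+ polysomes minus that on Kit+ polysomes was -13.55 (adjusted p = 4.93e-06). It rests on 3 Kit+ control libraries with no read of this gene, so its size depends on where 0 reads lie on the log2 scale.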

How the results depend on the processing

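Depth limits these results: 1 read is worth up to 9.83 normalized counts in the controls, so low genes there are poorly measured. The 397 genes that passed kept their sign in the alternatives that tested them, but Rpl5, 0.23, became -0.04 with rescaled libraries and -0.07 without VavCre replicate 3, and 13 list medians changed sign under some alternative, none of them those of ribosomal proteins, p53 targets, G2/M genes or histones. Lower genes outnumbered higher ones when libraries were rescaled, when all 11 were fitted and with log2 of the normalized count plus 1. The 397 genes that passed (209 higher, 188 lower) became 85 (24 and 61) with all 11 Ter119+ polysome libraries in the fit, 673 (402 higher) with 10 of these, and 228 (106 and 122) with log2 of the normalized count plus 1. They became 1162 (729 and 433) with voom, 1376 (1034 and 342) with library weights, 230 (35 lower) with no trend and 694 (411 and 283) at a mean of at least 500, an alternative chosen, like thinned reads and the fit without the Rpl5-line library, after seeing the data. With rescaled libraries 366 were lower, and with no filter 82. Without 1 library the counts ranged from 0 to 2016 (higher 0 to 1554, lower 0 to 462).

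The replicate number as a block gave 1238 genes (864 higher and 374 lower), and 3469 in place of 2616 in the cytoplasm. Same-numbered polysome pools correlated by only 0.027, 0.072 and 0.016. In the cytoplasm they correlated by 0.381, 0.028 and 0.055, where the highest with another number was 0.041, 0.299 and 0.004. The number was not taken as pairing the pools, although pair 1 stood out in the cytoplasm. Rps19 kept its change of -1.04 with no trend, at an adjusted p of 0.158, and ranged from -1.13 to -0.97 without 1 library. Cytoplasm counts ranged from 1183 to 3158 without 1 library. The fraction difference gave 1 gene with log2 of the count plus 1. The cell type difference gave 1 to 10 genes and the line difference 616 to 1336 without 1 library, and the latter gave 2284 without the Rpl5-line library of 1020907 reads. The causes were not tested.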
